A study of Mus musculus with 5 samples.

Results

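Chromosome 11 carries the mouse α-globin genes, and its 4C signal with the β-major promoter on chromosome 7 is described here. All probes that the arrays assign to chromosome 11 were taken, 56658 of the 385000 probes on each array (14.7%), and no measured value entered that choice. 4C captures the DNA that lies close to a chosen viewpoint inside the nucleus. Chromatin is fixed, cut with restriction enzymes (here HindIII and NlaIII) and religated, everything that has become linked to the viewpoint is amplified, and the product is hybridised to an array. The probes are 60 bases long, lie within 100 bp of a HindIII site, and a probe with more than 2 matches in the genome had been discarded at the design stage.

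Fetal liver cells of mouse embryos at embryonic day 14.5 were used, a tissue that is rich in red blood cell precursors at that age. The labels give no genotype or strain. Both untreated arrays (A and B) are of cells cultured without a drug for 5 h. Both α-amanitin arrays (A and B) are of cells cultured for 5 h with α-amanitin, which blocks RNA polymerase II, at a concentration given as 100 mg/ml in the labels and as 100 µg/ml in the study's methods. The single DRB array is of cells cultured for 3 h with 100 µM DRB, an inhibitor of the kinases that allow the polymerase to elongate. The A samples carried the dye Cy3, and the B and DRB samples carried Cy5, so letter and dye run together and cannot be told apart. The comparison asks whether contacts of the β-major promoter depend on ongoing transcription. A measure of the drugs' effect on transcription is not part of these arrays, and no cell type markers can be read from DNA contacts.

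Adult haemoglobin is assembled from α-globin and β-globin chains in equal amounts, and the genes for these chains lie on different chromosomes. Both gene clusters are transcribed at very high rates in red blood cell precursors, and each is driven by distant enhancers. A contact with the viewpoint's own chromosome is called cis and one with another chromosome is called trans. Trans signal in 4C is sparse, so it is read by asking whether many neighbouring probes are high together.

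The promoters of the adult α-globin genes on chromosome 11 are shown because they are the counterpart of the viewpoint. The stretch is the 250 bases upstream of the gene start, written 5′ to 3′ on the plus strand, as RefSeq gives it for build GRCm38.p6, which is not the build of the arrays. Capitals mark the CCAAT box, both copies of the CACCC box, a GATAA match (the core read by GATA factors) and the TATAAG of the TATA box.
Hba-a1, chr11:32283422-32283671: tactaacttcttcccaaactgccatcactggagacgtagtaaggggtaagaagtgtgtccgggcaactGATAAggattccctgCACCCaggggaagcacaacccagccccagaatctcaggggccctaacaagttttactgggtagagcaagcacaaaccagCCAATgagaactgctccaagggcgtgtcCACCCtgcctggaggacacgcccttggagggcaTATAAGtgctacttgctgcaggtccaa

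The Hba-a2 stretch, chr11:32296242-32296491 on the plus strand, was identical to that of Hba-a1 over all 247 bases compared, with an offset of 3 bases. The letters were searched on both strands of the 250 upstream bases of 32851 promoters. The CCAAT letters were found in 33.8% of them, those of the CACCC box in 52.0%, those of the GATAA match in 22.6% and those of the TATAAG match in 6.65%, and no matches overlapped in the α-globin stretches, so the matches are a description of the sequence and do not mark bound sites. The HindIII site AAGCTT was not among the letters of either α-globin stretch and occurred in 6.22% of all of them. A promoter sequence for the β-major gene (Hbb-b1) was not in the table used.

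The chromosome 11 signal was close to that of the whole array. Its median was 489 and 435 in the untreated arrays A and B, 697 and 470 after α-amanitin (A and B) and 495 after DRB. The array medians were 476, 419, 677, 463 and 469 in the same order, so the high median of α-amanitin A was not particular to chromosome 11. Its upper end was not raised in the same way. The brightest 5% of chromosome 11 probes began at 1758 in α-amanitin A and at 1215 in α-amanitin B. They began at 2156 and 2344 in the untreated arrays A and B and at 4514 in DRB. Between 0 and 48 probes of chromosome 11 stood at the highest value of the scanner, 65535. The probe positions are 0 in every row, so a place is given by its rank in the order of the probe numbers, from 1 to 56658. Arrays give no read depth, and their number, 5, limits precision.

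Chromosome 11 had the highest median of the 6 trans chromosomes in all 5 arrays. Its log2 median lay above the mean of the other 5 trans chromosomes by 0.07 and 0.10 in the untreated arrays A and B, 0.06 and 0.04 after α-amanitin (A and B) and 0.12 after DRB. All 5 differences were therefore positive and small, and the lowest was in an α-amanitin array. Their mean was 0.08 ± 0.03 (SD, n = 5), which is 1.06-fold. An exact two-sided sign-flip permutation test over the 5 arrays gave p = 0.0625, the smallest value that 5 arrays allow, so this design cannot reach the 0.05 level. All 5 arrays carry the same probes, so a fixed difference in probe content between the chromosomes would give the same sign in every array, and it cannot be told apart from a difference in contacts here.

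The share of bright probes on chromosome 11 differed between conditions far more than its median did. A probe was counted as bright above 2 times the chromosome's median in the same array. The share was 15.4% and 17.6% in the untreated arrays A and B, 8.13% and 7.57% after α-amanitin (A and B) and 21.1% after DRB. Both α-amanitin arrays were thus below both untreated arrays, and DRB was above all of them. The other 5 trans chromosomes showed nearly the same shares, from 14.7% to 16.1% in untreated A and from 6.97% to 8.44% in α-amanitin B, so the difference runs over the whole array and is not particular to chromosome 11. The thresholds used below move with it.

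A region was called in trans when its running median of 29 probes, about 60 kb at the study's average spacing, was above every value found in 100 shuffles of the probes of that chromosome in that array. This rule follows the study's, which asks for a false discovery rate of 0%. The threshold on chromosome 11 was 1136 and 1180 in the untreated arrays A and B, 1194 and 755 after α-amanitin (A and B) and 1529 after DRB. Relative to the chromosome's median it stood at 2.32 and 2.71 in the untreated arrays, 1.71 and 1.61 in the α-amanitin arrays and 3.09 in DRB, so a lower excess was enough to pass after α-amanitin.

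Only 1 region of chromosome 11 passed in both untreated arrays, and it lay at the very start of the probe order. It covered 30 windows and probes 1 to 58. The same place was the only region of chromosome 11 that passed in both α-amanitin arrays, over 31 windows and probes 1 to 59, and the only one in DRB, over 30 windows. All 30 untreated windows were above threshold in each of the 5 arrays. These counts depend on the setting. With a running mean in place of the running median, 0 regions passed in both untreated arrays and 0 in both α-amanitin arrays. The α-amanitin count was 4 with windows of 59 probes, 6 with 1 shuffle or at a false discovery rate below 0.05, 3 with α-amanitin A alone and 4 with α-amanitin B alone. The untreated count was 3 at that rate and 3 with untreated A alone. On all 6 trans chromosomes, 0.110% of 326733 windows passed in both untreated arrays, 0.122% in both α-amanitin arrays and 0.119% in DRB. On chromosome 11 the count was 30 of 56630 windows in the untreated arrays, below 212 on chromosome 8 and above 0 on chromosome 10.

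**Figure D1:**
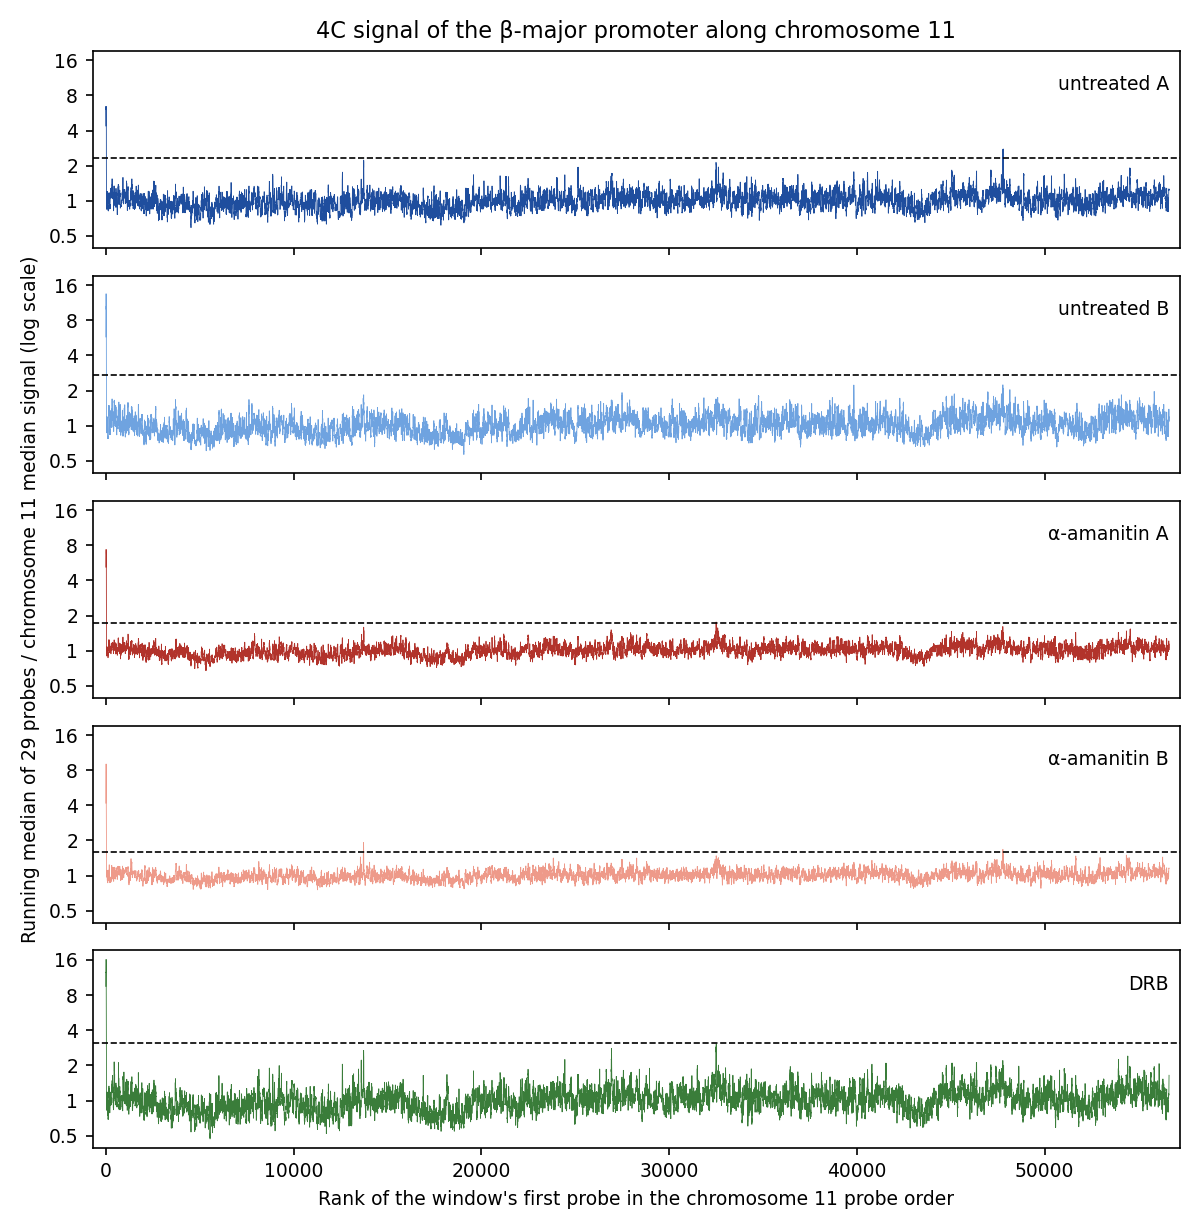
Running medians of 29 probes (log axis, divided by the chromosome 11 median of the array) against the rank of the window's first probe, in one panel per array. The dashed line is the array's threshold. The start of the order rises to between 6.42 and 16.2 times the median in all 5 arrays, while elsewhere a few windows cross the line in single arrays.

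At the start of the order the running median peaked at 3136 and 5879 in the untreated arrays A and B, 5133 and 4244 after α-amanitin (A and B) and 8001 after DRB. Every array stood well above its own threshold, by 2.76, 4.98, 4.30, 5.62 and 5.23 times. The untreated and α-amanitin values overlapped on both scales. The highest untreated mean fell on probes 15 to 43, where all but 2 of the 29 probes were over 2 times the median in all 5 arrays.

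The first window, probes 1 to 29, had a signal of 2141 and 2509 in the untreated arrays A and B, 3620 and 1961 after α-amanitin (A and B) and 4700 after DRB, a mean of 2986 ± 1155 (SD, n = 5). Divided by the chromosome 11 median, these are 4.38, 5.76, 5.19, 4.17 and 9.50. Both α-amanitin arrays overlapped with the untreated ones, and DRB was the highest. The last window of the order, probes 56630 to 56658, stayed at 1.14 to 1.64 times the median and below threshold in every array.

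The rise was carried by many probes and ended sharply. The edge was read from the signals after probe 44, so the counts that follow describe it and test nothing. Among the first 44 probes, 37 were over 2 times the chromosome 11 median in all 5 arrays and 1 was over it in none. Over the whole of chromosome 11, 2.94% of the probes were over it in all 5 arrays. Among the next 44 probes, 0 were over it in all 5 arrays and 32 were over it in none.

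The median of the first 44 probes was 2893 and 3848 in the untreated arrays A and B, 4712 and 2437 after α-amanitin (A and B) and 7572 after DRB. The median of the next 44 was 462, 456, 646, 491 and 471, which is the level of the chromosome as a whole. The drop between these neighbouring blocks was present in each array.

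**Figure D2:**
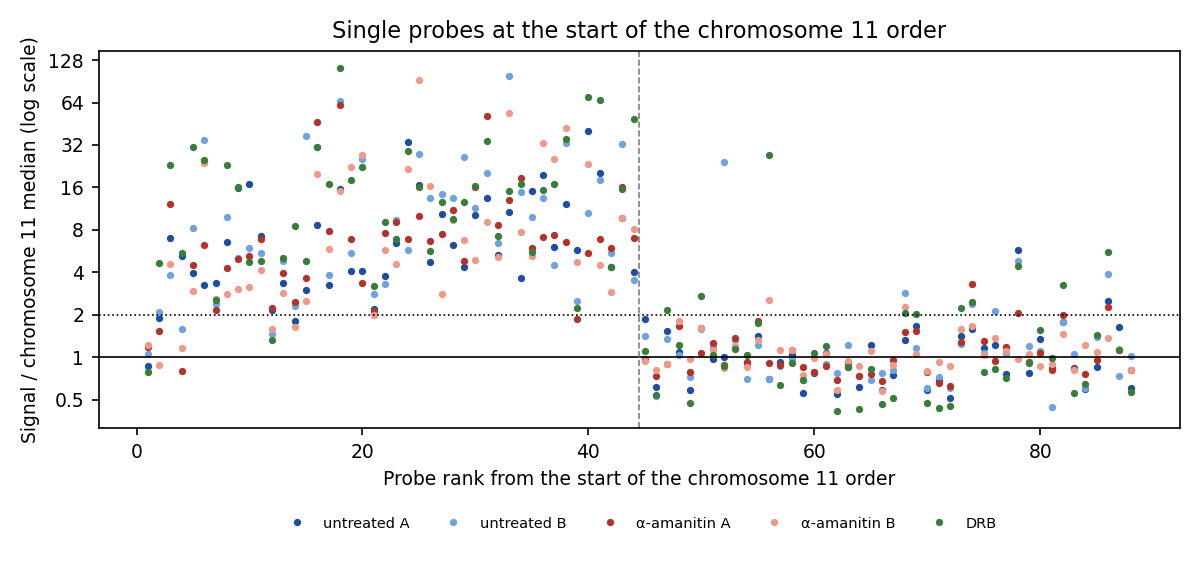
Signal of each of the first 88 probes of the chromosome 11 order, divided by the chromosome 11 median of the array (log axis), with 1 point per array. The dashed line marks the edge after probe 44 and the dotted line 2 times the median; 37 of the first 44 probes and 0 of the next 44 are above the dotted line in all 5 arrays.

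Which of these probes was brightest varied between the arrays. It was probe 40 at 19572 in untreated A, probe 33 at 43162 in untreated B, probe 18 in α-amanitin A at 43077, probe 25 in α-amanitin B at 43107 and probe 18 in DRB at 55752. Across the first 44 probes, the rank correlation between 2 arrays averaged 0.53 over the 10 pairs, from 0.45 to 0.62, against 0.67 for all single probes of chromosome 11. These points share the probe sequences, and the values are given without a test.

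The 44 probes are spread over the surface of the arrays, from column 27 to 764 of 768 and from row 24 to 1011 of 1024. They take up 58 consecutive probe numbers, so 75.9% of the candidate numbers there are on the array, against 80.0% for all of chromosome 11. At 60 kb per 29 probes the 44 probes would span about 91.0 kb, an estimate that assumes the average spacing. Their sequences and genes were not analysed here.

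A raised first window was also seen on chromosome 14 and not on the remaining chromosomes. Relative to the chromosome's own median, the first window of chromosome 14 was at 2.82 and 4.23 in the untreated arrays A and B, 3.90 and 2.45 after α-amanitin (A and B) and 5.64 after DRB. That is lower than on chromosome 11 in each array. Chromosomes 7, 8, 10, 12 and 15 had first windows between 0.98 and 1.41 times their medians. Among the first 44 probes, 27 on chromosome 14 and 0 to 3 on those 5 chromosomes were over 2 times the median in all arrays. The first 44 probes of chromosome 14 take up 1174 probe numbers, so only 3.75% of the candidate numbers there are on the array, unlike on chromosome 11. Regions away from the start of the order passed in all 5 arrays on chromosomes 8, 12 and 14. On chromosome 8, probes 7751 to 7822 peaked at 2.41 and 3.83 times the threshold in the untreated arrays A and B. Peaks there were 4.68 and 4.27 times after α-amanitin (A and B) and 5.58 times after DRB. A rise of this height was thus not particular to chromosome 11.

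**Figure D3:**
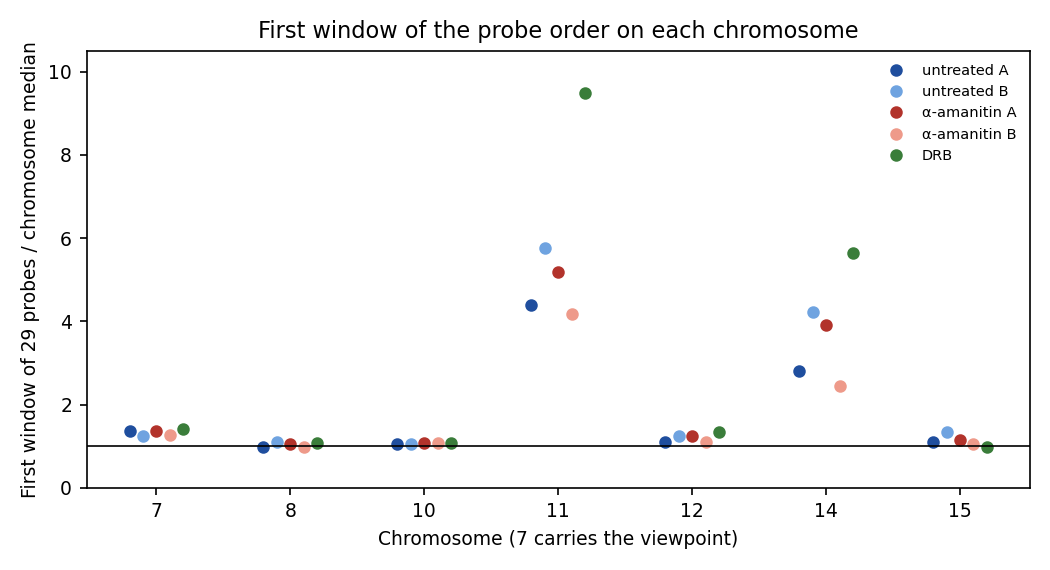
Running median of the first 29 probes of each chromosome's order, divided by that chromosome's median, for each array. Chromosome 11 lies between 4.17 and 9.50 and chromosome 14 between 2.45 and 5.64, and the other chromosomes lie between 0.98 and 1.41.

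Away from the start, no place on chromosome 11 passed in both arrays of a condition. The 4 next highest places by the untreated mean, at least 29 probes apart, were above threshold in no more than 2 arrays each. The place at probes 47791 to 47819 had a running median of 1355 and 912 in the untreated arrays A and B, 924 and 722 after α-amanitin (A and B) and 821 after DRB. Untreated A alone was above threshold there, at 1.19 times. In α-amanitin B, windows within probes 47772 to 47811 passed, with a peak at 1.04 times the threshold.

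The place at probes 13734 to 13762 had a running median of 1092 and 801 in the untreated arrays A and B, 1107 and 800 after α-amanitin (A and B) and 1225 after DRB. Only α-amanitin B passed, over 16 windows between probes 13721 and 13764 and at most 1.19 times its threshold. The best window of that stretch reached 0.96 and 0.68 of the threshold in untreated A and B, 0.93 in α-amanitin A and 0.87 in DRB.

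The place at probes 32500 to 32528 had a running median of 1044 and 735 in the untreated arrays A and B, 1226 and 687 after α-amanitin (A and B) and 1419 after DRB. α-amanitin A alone passed, at 1.03 times, and DRB reached 0.99 of its threshold nearby. The place at probes 39841 to 39869, at 867, 972, 757, 581 and 752 in the same order of arrays, passed in no array. Relative to the chromosome 11 median it stood at 1.77 and 2.23 in the untreated arrays, 1.09 and 1.24 in the α-amanitin arrays and 1.52 in DRB, so both drug conditions were below both untreated arrays.

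**Figure D4:**
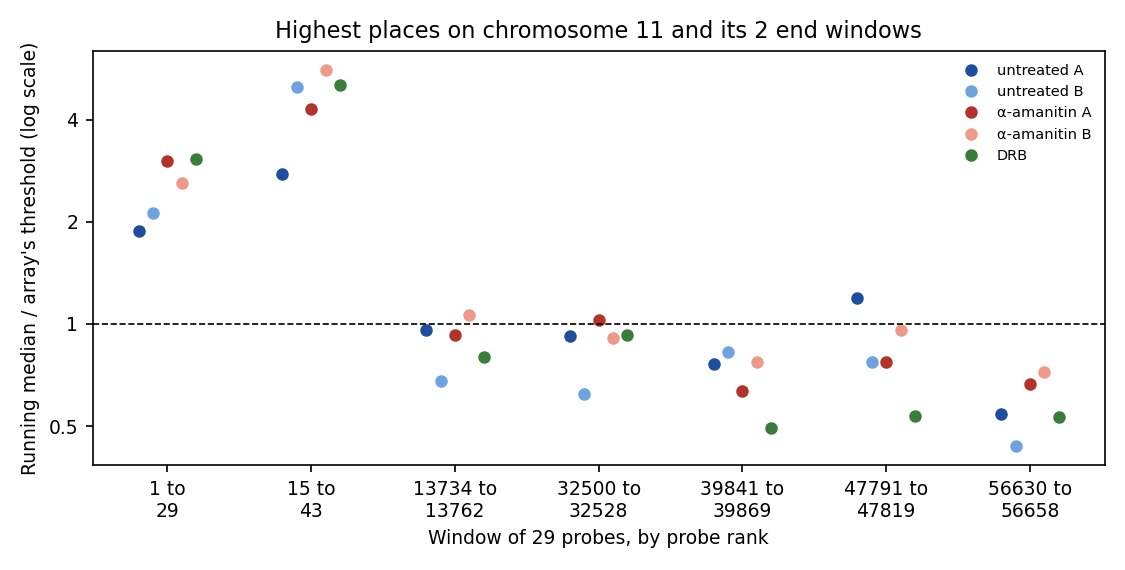
Running median of 29 probes divided by the array's threshold (log axis) for the first and last windows of chromosome 11 and its 5 highest separate places, named by probe rank. All 5 arrays are above the dashed line (threshold) for probes 1 to 29 and 15 to 43, and at most 1 array is above it at any other window.

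Where the α-globin genes fall in this order could only be estimated. Their RefSeq position, turned into a rank by the share of the probes, gave rank 13907, and the same method missed the viewpoint on chromosome 7 by 3032 probes. Turned into a rank through the probe numbers it gave 12669, with a miss of 713 probes at the viewpoint. A stretch of 967 probes to each side, about 2 Mb and set beforehand, was examined around both ranks. The miss of 3032 probes is larger than 967 probes, so the stretch around rank 13907 may not hold the genes. The miss of 713 probes is smaller, but it was measured on chromosome 7. No place in either stretch can be assigned to the genes, and the values below do not show whether they are in contact.

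Neither stretch was raised as a whole. Around rank 13907 the median signal was 0.99 to 1.01 times the chromosome 11 median over the 5 arrays, and around rank 12669 it was 0.91 to 0.98 times. The first of these stretches holds the place at probes 13734 to 13762 described above, which passed in α-amanitin B only. Cutting chromosome 11 into 29 pieces of the same length gives a scale: 1 to 7 pieces, depending on the array, had a higher best window. The stretch around rank 12669 had no window above threshold in any array. Its highest window by untreated mean was probes 13600 to 13628. It stood at 0.66 and 0.56 of the threshold in the untreated arrays A and B, 0.64 and 0.71 after α-amanitin (A and B) and 0.56 after DRB. Each array's own best window in the stretch reached 0.76 and 0.56 in the untreated arrays A and B, 0.75 and 0.90 after α-amanitin (A and B) and 0.72 after DRB. Between 6 and 24 of the 29 pieces had a higher one.

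The response to α-amanitin was tested on non-overlapping windows of 29 probes with limma, after quantile normalization of all 5 arrays and over all 7 chromosomes together. Of 1953 windows on chromosome 11, 0 passed an adjusted p of 0.05. Over all 13261 windows the count was also 0, so the percentage called was 0. At an unadjusted p under 0.05 there were 162 windows on chromosome 11 (8.29%), 92 higher and 70 lower after α-amanitin, against 1231 of all windows (9.28%). The median difference on chromosome 11 was 0.01 on the log2 scale, with a median standard error of 0.11. The study describes duplicates as independent replicate experiments, and the labels do not say whether they are of separate cultures. The p-values set each difference against the spread between the arrays of a group, which limma moderates over all windows. The arrays of a group differ in dye, so dye is part of that spread.

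The window with the smallest p on chromosome 11, probes 30770 to 30798, had a signal of 436 and 371 in the untreated arrays A and B, 777 and 542 after α-amanitin (A and B) and 491 after DRB. Relative to the chromosome 11 median these are 0.89, 0.85, 1.11, 1.15 and 0.99, so both α-amanitin arrays were above both untreated ones and DRB lay between them. The log2 difference was 0.45 ± 0.11 (SE) with an adjusted p of 0.274, which did not pass. Probes 4641 to 4669 gave -0.38 ± 0.10 (adjusted p = 0.317) and probes 26188 to 26216 gave 0.32 ± 0.09 (adjusted p = 0.361). In these 3 windows the A pair and the B pair differed in the same direction. Choosing windows by the smallest p favours such agreement, so it adds no separate support.

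For the start of the order, the direction of the α-amanitin difference depended on the scaling. After quantile normalization the first window was higher in α-amanitin by 1.16 ± 0.77 (SE) on the log2 scale, with an adjusted p of 0.687. This difference was 1.72 within the A pair and 0.59 within the B pair, and the α-amanitin arrays themselves were 1.08 apart. With each array centred on its own median in place of quantile normalization the difference was -0.13, and relative to the chromosome 11 median it was 0.25 within the A pair and -0.47 within the B pair. No change at the start of chromosome 11 was therefore detectable with 2 arrays a group.

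The other named places did not pass either. In the tested window nearest to each, the log2 difference after α-amanitin was 0.12 ± 0.21 (SE, adjusted p = 0.903) for probes 47793 to 47821 and 0.08 ± 0.18 (adjusted p = 0.924) for probes 13747 to 13775. It was 0.19 ± 0.27 (adjusted p = 0.879) for probes 32510 to 32538 and -0.32 ± 0.20 (adjusted p = 0.676) for probes 39847 to 39875. Each of these differences was under 2 standard errors. With each array centred on its own median they were -0.21, -0.14, -0.26 and -0.57 in the same order. The direction therefore depended on the scaling in all but the last of these windows.

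DRB was compared with the same untreated arrays as α-amanitin, so these comparisons share their controls. With a single DRB array there is no test. Of 1953 windows on chromosome 11, 0 differed by more than 1 on the log2 scale from the untreated mean, and over all 7 chromosomes 53 of 13261 (0.400%) did, all of them lower in DRB. Between the untreated arrays themselves, 0 windows of chromosome 11 and 47 of all windows were that far apart. The first window differed from the untreated mean by 0.15 after quantile normalization and by 0.92 relative to the chromosome 11 median, the second scale being the one on which DRB was highest. The place at probes 32500 to 32528 differed by 0.22 and 0.59 on the same 2 scales.

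The profile of chromosome 11 as a whole was alike in all arrays. The rank correlation of the running medians was 0.72 between the untreated arrays and 0.68 between the α-amanitin arrays. Untreated arrays paired with α-amanitin arrays averaged 0.64 (range 0.58 to 0.71, 4 pairs), and untreated arrays paired with DRB averaged 0.74 (0.71 and 0.77). Pairs of untreated with DRB thus overlapped with duplicates of a condition. All 4 pairs of untreated with α-amanitin lay below the untreated duplicates, though their range reached past the α-amanitin duplicates. Both pairs with α-amanitin B were the lowest, at 0.60 and 0.58. The points are 56630 overlapping windows that share probe sequences between arrays, and the pairs share arrays, so the values are a description.

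Over all 10 pairs the mean was 0.68 ± 0.06 (SD) on chromosome 11, against 0.71 to 0.76 on the other 6 chromosomes. When each window of one array was taken from the odd probes and that of the other array from the even probes, so that no probe sequence was shared, the mean fell to 0.29 (0.24 to 0.33) on chromosome 11 and was 0.32 to 0.43 on the others. Neighbouring probes of chromosome 11 had a correlation of log2 signal of 0.08 to 0.11 in the 5 arrays, and 0.07 to 0.11 without the first 44 probes, whereas on chromosome 7, where the viewpoint lies, it was 0.17 to 0.27. Neighbouring probes of chromosome 11 were thus only weakly related, with or without its start.

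On a coarse scale the level along chromosome 11 followed the same course in each array. The order was cut into 20 stretches of 2832 or 2833 probes. In 11 of them the median was above that of the chromosome in all 5 arrays, in 8 it was below in all 5, and 1 was mixed. The highest was the 17th, probes 45327 to 48159, at 1.11 and 1.16 in the untreated arrays A and B, 1.10 and 1.06 after α-amanitin (A and B) and 1.18 after DRB times the chromosome's median. The lowest was the 7th, probes 16998 to 19830, at 0.88, 0.85, 0.89, 0.92 and 0.79.

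The amplitude of this course was smallest in α-amanitin B and largest in DRB in both of these stretches. The rank correlation over the 20 stretches was 0.92 to 0.98 in the 10 pairs of arrays, which share the probe sequences. The share of candidate probe numbers kept on the array ran from 65.8% to 88.5% among the stretches, and its rank correlation with their mean ratio was 0.53 over the 20 stretches. The part of probe content in the course was not tested. The first stretch, which holds the start of the order, was at 1.01 to 1.05, so the rise of the first 44 probes did not extend over it.

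**Figure D5:**
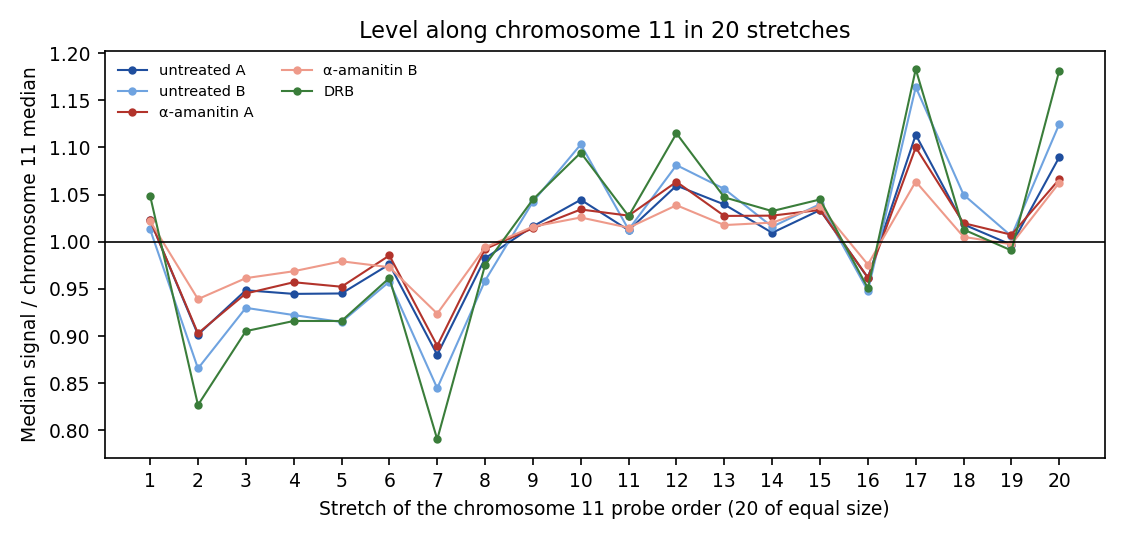
Median signal of 20 equal stretches of the chromosome 11 probe order, divided by the chromosome 11 median, with a line for each array. The 5 lines run together, from 0.79 to 0.92 in the 7th stretch up to 1.06 to 1.18 in the 17th.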

How the data were processed

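4C signals of the β-major promoter were used from 2 untreated, 2 α-amanitin and 1 DRB array of mouse fetal liver. The authors deposited probe signal intensity read with NimbleScan 2.3.19, not background corrected or normalized; every array also held a second sample in the other dye, not analysed here. The study's positions are on NCBI build m34, for which no annotation was used here. Members, lists and tests were chosen with earlier results of these data known. Probes were ordered by the running number of their identifiers. Running medians of 29 probes on uncorrected signals were set against 100 seeded shuffles for each array, and adjacent windows were joined without gaps. limma 3.58.1 in R 4.3.3 (lmFit, eBayes with trend, Benjamini-Hochberg) tested log2 window medians of 4 arrays after quantile normalization. The steps were tested on simulated data. The changes simulated for limma were larger than any seen on chromosome 11, so they say nothing about power for smaller ones. Python 3.11.15, numpy 2.4.6, scipy 1.17.1, pandas 2.3.3 and matplotlib 3.10.9 were used. Named windows were every region passing in both arrays of a condition, the 5 highest separate places by untreated mean and the 3 with the smallest limma p. Both ends and the highest window near each estimated α-globin rank were also named. Alternatives varied window, averaging, shuffling, false discovery rate, joining, normalization, filter, pairing and arrays left out.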

Additional observations from a re-analysis of the deposited data

How the results depend on the processing

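With a running mean in place of the running median, 0 regions passed in both untreated arrays and 0 in both α-amanitin arrays. With no untreated region to share, the shared counts with α-amanitin and DRB were 0 as well. DRB itself still passed at the start of the order, over 7 windows within probes 12 to 46. The mean level of the first window was 5638 under the running mean. At a false discovery rate below 0.05, 3 regions passed in untreated and 6 in α-amanitin. α-amanitin regions numbered 4 with windows of 59 probes, 3 of them between probes 32471 and 32655, and 6 with 1 shuffle. DRB passed in 2 of these 3, up to probe 32549, and not in the one at probes 32595 to 32655. With single arrays setting the group, untreated regions ranged from 1 to 3 (3 from untreated A alone) and α-amanitin regions from 3 to 4, while 1 untreated region was shared with α-amanitin in each case. With windows of 59 probes the correlations were 0.781 (untreated duplicates), 0.712 (untreated with α-amanitin) and 0.802 (untreated with DRB), and with a running mean they were 0.585, 0.566, 0.603 and 0.532 (α-amanitin duplicates). The limma count on chromosome 11 moved without untreated A and without α-amanitin A. Such a fit leaves 1 array in a group and assumes that it varies like the others, so its counts are not given. With 1 array left out, the first window's α-amanitin difference ran from 0.614 to 1.70 on the log2 scale. The first window's α-amanitin difference of 1.16 became -0.126 after centring on array medians. The cause of these changes was not tested. The other 92 of 114 alternatives stayed on the same side or within the stated spread.

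The arrays share the letters A and B, and deviations of arrays with the same letter had a correlation of -0.016 on chromosome 11. The replicate block gave 0 called windows on chromosome 11, 37 over all chromosomes, and a correlation of 0.642 for same-letter pairs. Leaving out the first 44 probes, an alternative chosen after seeing the data, gave 0.717, 0.640, 0.737 and 0.682.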
